A study of Mus musculus with 17 samples.

Results

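The difference between 2 responses of the embryonic kidney to active beta-catenin was measured gene by gene. In the first response beta-catenin was stabilised in the stromal lineage with Foxd1-Cre, and in the other it was stabilised in the nephron progenitor lineage with Six2-Cre. On the scale log2(FPKM + 1), the Foxd1-Cre effect was the mean of 5 Foxd1-Cre libraries minus the mean of wild types 1 to 6, and the Six2-Cre effect was the mean of 3 Six2-Cre libraries minus the mean of wild types 7 to 9. The difference of the effects was the first minus the second, so that a value above 0 marks a gene moved further up, or less far down, by Foxd1-Cre. It could be formed for 13810 of the 24432 gene IDs. These had at least 1 FPKM (fragments scaled by transcript length and by the mapped fragments of a library) in at least 3 of the 17 libraries and a value above 0 in both sets of libraries described below. No mutant library was set against a library of the other mutant.

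The kidneys were dissected from mouse embryos of mixed strain at E12.5, and RNA of the whole organ was sequenced. The genotypes were Ctnnb1-delta3 c/+;Foxd1 for the Foxd1-Cre libraries, Ctnnb1-delta3 c/+;Six2 for the Six2-Cre libraries and Wild-type for the 9 controls. The delta3 allele loses the exon of Ctnnb1 that holds the phosphorylation sites for degradation once Cre has acted, and 1 of the 2 gene copies carries it. No group carried Cre without the allele, so an effect of Cre itself cannot be told apart from that of beta-catenin. Whether Cre sits in the Foxd1 or Six2 gene itself, whether embryos were pooled and whether controls were littermates are not given in the sources used here, so p-values measure only the spread between these samples. The 11 libraries behind the Foxd1-Cre effect corresponded to 28500000 to 37600000 reads each, read off the smallest step between FPKM values, and had 5312 to 5807 genes at 0. The 6 libraries behind the Six2-Cre effect corresponded to 5430000 to 5820000 reads and had 7590 to 7891 genes at 0. Each effect therefore had its own depth and its own wild types, and depth and Cre line cannot be told apart in their difference.

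In the canonical Wnt pathway, beta-catenin that escapes degradation enters the nucleus and activates genes together with TCF and LEF factors. Many of those genes encode inhibitors of the pathway, which act on the ligand, on the receptor or inside the cell. In the kidney, Wnt ligand from the ureteric bud drives the Six2-expressing progenitors both to renew and to form epithelium, and the Foxd1-expressing stroma around them signals to both.

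The 2 effects moved partly different genes. By limma, 1182 genes rose (8.45% of 13996 tested) and 674 fell (4.82%) in the Foxd1-Cre libraries, 13.3% in all, and 1097 rose (7.93% of 13828) and 808 fell (5.84%) in the Six2-Cre libraries, 13.8% in all. The split of the Foxd1-Cre calls was 1012 up and 1007 down with libraries centred on their median gene, and 1231 and 408 with libraries rescaled to the same sum. The difference of the effects was called for 1519 genes, 11.0% of those tested, with 795 above 0 (5.76%) and 724 below 0 (5.24%). Of these 1519 genes, 780 were called in the Six2-Cre effect alone, 326 in the Foxd1-Cre effect alone, 152 in neither, 169 in both with the same sign and 92 in both with opposite signs. With the smaller of the degrees of freedom of the 2 fits in place of their combination, 365 genes were called above 0 and 347 below 0, 712 in all. The Six2-Cre counts moved most with single libraries: between 568 and 710 genes rose and between 339 and 422 fell when Six2-Cre 1, 2 or 3 or wild type 7 or 8 was left out. The standard error of a gene's effect had a median of 0.059 for Foxd1-Cre and 0.095 for Six2-Cre. The means of wild types 1 to 6 and wild types 7 to 9 lay more than 1 log2 unit apart for 62 of the 1519 genes (4.08%) and for 7.64% of all genes tested.

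**Figure D1:**
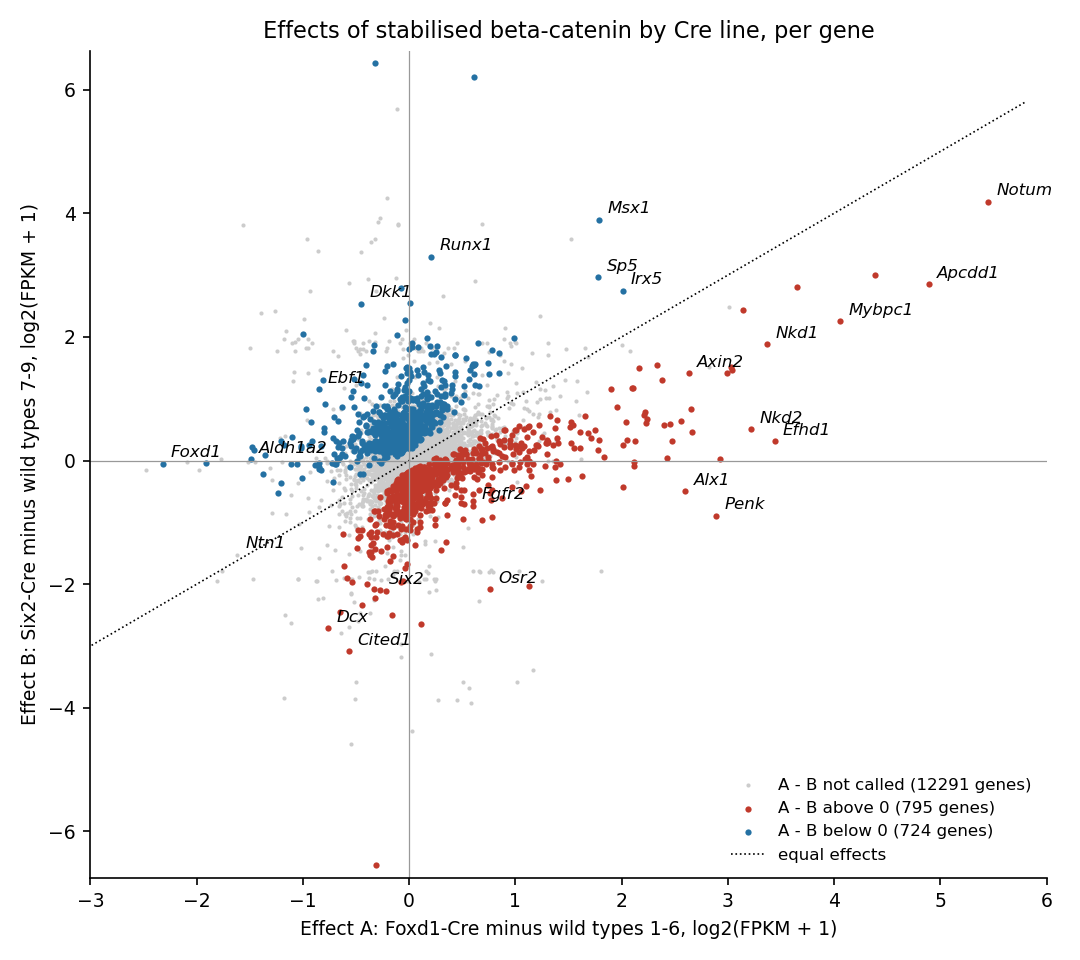
Each point is 1 of 13810 genes, with the Foxd1-Cre effect on the horizontal axis and the Six2-Cre effect on the vertical axis, both as log2(FPKM + 1) differences from the wild types of their own set. Genes with a called difference above 0 (red, 795) lie below the dotted line of equal effects and those below 0 (blue, 724) lie above it, and Notum is the gene farthest up in the Foxd1-Cre effect at 5.45.

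Genes that moved the same way in both numbered 525 (3.80% of 13810), or 28.4% of the Foxd1-Cre calls and 27.6% of the Six2-Cre calls among these genes. Of them 374 rose and 151 fell in both (320 and 217 with centred libraries, 413 and 94 with rescaled libraries). Without Six2-Cre 2, Six2-Cre 3 or wild type 8 between 221 and 242 rose in both, and without those or wild type 7 between 82 and 92 fell in both. Genes that moved in opposite directions numbered 92 (0.666%), with 31 up in Foxd1-Cre and down in Six2-Cre and 61 the reverse. Those counts were 16 to 20 without Foxd1-Cre 3, Six2-Cre 2 or 3 or wild type 7 or 8 for the first, and 31 to 36 without Six2-Cre 1, 2 or 3 or wild type 7 for the second. Across the 13810 genes the effects had a Pearson correlation of 0.26, a description over genes that are not independent and that were measured at different depths.

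Ctnnb1, Foxd1 and Six2 were read first, as the genes named in the genotypes. Ctnnb1 did not pass in Foxd1-Cre (0.14, adjusted p = 0.105), rose by 0.24 in Six2-Cre (adjusted p = 0.0213) and had a difference of -0.10 ± 0.07 (SE, adjusted p = 0.389). Without Six2-Cre 1, 2 or 3 or wild type 9 the Six2-Cre call ended (adjusted p from 0.0557 to 0.0772). A value for the whole gene does not resolve the deleted exon, so Ctnnb1 is no check of the genotype. Foxd1 (ENSMUSG00000078302, GRCm38 chromosome 13, 98354242 to 98359305), a forkhead factor of the cortical stroma, stood at 15, 24.3, 19.8, 19.8 and 20.5 FPKM in Foxd1-Cre 1 to 5 and at 92.4 to 109 FPKM (median 105) in wild types 1 to 6. In Six2-Cre 1 to 3 it stood at 75.9, 69.8 and 68.3 FPKM against 66.4, 79.2 and 76.6 in wild types 7 to 9. All Foxd1-Cre libraries lay below all of their wild types, while the Six2-Cre libraries lay among theirs, and the difference of the effects was -2.27 ± 0.13 (SE, adjusted p = 3.55e-09). Six2 (ENSMUSG00000024134, GRCm38 chromosome 17, 85684277 to 85688274), the factor that keeps progenitors undifferentiated, stood at 91.8, 90.7, 88.1, 95.4 and 83.2 FPKM in Foxd1-Cre and 93 to 125 FPKM (median 111) in wild types 1 to 6. In Six2-Cre it was at 18.2, 17.7 and 17.9 FPKM against 87.5, 84.3 and 70.6 in wild types 7 to 9. The Six2-Cre libraries lay far below their wild types and the Foxd1-Cre libraries overlapped theirs, with a difference of 1.84 ± 0.11 (SE, adjusted p = 6.62e-08). Six2 still fell in Foxd1-Cre (-0.27 ± 0.07 SE, adjusted p = 0.0283), but that call ended without Foxd1-Cre 2, 3 or 5 or wild type 4 or 6 (adjusted p from 0.0543 to 0.0776) and with libraries rescaled to the same sum (0.112). In RNA of a whole organ, fewer cells of a type and less RNA per cell cannot be told apart, here or below.

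In a list of Wnt inhibitors and secreted or membrane-bound feedback genes, more rose than fell in both mutants, and several rose by unequal amounts. Of 15 measured, 8 rose and 2 fell in Foxd1-Cre and 7 rose and 1 fell in Six2-Cre. Over all genes tested 8.45% rose and 4.82% fell in Foxd1-Cre, and 7.93% rose and 5.84% fell in Six2-Cre. The counts of each list below are to be read against these shares. The difference was called above 0 for 5 and below 0 for 1 (40%, against 11.0% over all genes tested). Its median was 0.25 against 0.01 over all genes tested. Notum (ENSMUSG00000042988, GRCm38 chromosome 11, 120653788 to 120661175), an enzyme that strips the lipid from Wnt ligands, stood at 149, 124, 162, 196 and 176 FPKM in Foxd1-Cre and 2.24 to 3.66 FPKM (median 2.57) in wild types 1 to 6. In Six2-Cre it stood at 53.7, 65.7 and 57.7 FPKM against 2.97, 1.59 and 2.42. Neither mutant overlapped its wild types, the effects were 5.45 and 4.19, and their difference was 1.26 ± 0.20 (SE, adjusted p = 0.00145). Apcdd1, which binds Wnt at the cell surface, rose by 4.89 and 2.86 with a difference of 2.03 ± 0.13 (SE, adjusted p = 2.44e-08). Tnfrsf19, a membrane receptor induced by the pathway, rose by 2.11 and 1.18 with a difference of 0.93 ± 0.16 (SE, adjusted p = 0.00538). Kremen1, a receptor for the Dkk inhibitors, rose by 1.30 in Foxd1-Cre and did not pass in Six2-Cre (0.10), with a difference of 1.19 ± 0.09 (SE, adjusted p = 1.87e-07). Shisa2, which retains receptors inside the cell, fell in Six2-Cre alone (-0.57), with a difference of 0.51 ± 0.09 (SE, adjusted p = 0.0015).

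Dkk1 fell in Foxd1-Cre and rose in Six2-Cre. The gene (ENSMUSG00000024868, GRCm38 chromosome 19, 30545863 to 30549665) encodes a secreted protein that blocks the Wnt co-receptor and stood at 3.99, 4.3, 4.53, 5.14 and 4.86 FPKM in Foxd1-Cre, below the 5.37 to 9.1 FPKM (median 6.44) of wild types 1 to 6. The Six2-Cre libraries stood at 52.4, 58.9 and 54.5 FPKM against 9.12, 8.87 and 8.11, above every wild type. The effects were -0.45 ± 0.10 (SE, adjusted p = 0.0133) and 2.54 ± 0.07 (SE, adjusted p = 8.33e-05). Their difference of -2.99 ± 0.12 (SE, adjusted p = 1.51e-10) was the third in size of the differences below 0 among the genes ranked under the naming rule. Wif1 and Frzb, which bind Wnt ligands, and Bambi, a decoy receptor for TGF-beta and BMP signals, rose in both mutants without a called difference. For Wif1 the effects were 3.01 and 2.48 and the 95% interval of the difference was 0.05 to 1.02. For Frzb they were 1.20 and 0.95 with an interval of -0.09 to 0.58, and for Bambi 0.60 and 0.48 with an interval of -0.16 to 0.40. The rise of Bambi in Six2-Cre ended without Six2-Cre 1, 2 or 3 or wild type 7 or 8 (adjusted p from 0.0503 to 0.0618).

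A list of 14 genes joined feedback inside the cell, turnover of receptors at its surface, and the growth genes Ccnd1 and Myc. Of the 14, 8 had a called difference above 0 and none below 0 (57.1%, against 11.0% over all genes tested). The median difference of the 14 was 0.64, and 7 rose in Foxd1-Cre, none fell there, 2 rose in Six2-Cre and 4 fell there. Axin2 (ENSMUSG00000000142, GRCm38 chromosome 11, 108920349 to 108950783), a scaffold of the complex that degrades beta-catenin, stood at 63.5, 60.1, 66.8, 77 and 72.5 FPKM in Foxd1-Cre and 9.57 to 11 FPKM (median 9.94) in wild types 1 to 6. Its Six2-Cre values were 34.2, 41.2 and 34.1 FPKM against 13.2, 12.4 and 13.5. Every mutant library lay above its wild types, with a difference of 1.22 ± 0.11 (SE, adjusted p = 7.79e-06). Nkd1, an inhibitor of the signal transducer Dishevelled, rose by 3.37 and 1.88, with a difference of 1.49 ± 0.11 (SE, adjusted p = 6.62e-08). Its relative Nkd2 (ENSMUSG00000021567, GRCm38 chromosome 13, 73818534 to 73847631) stood at 24.6, 20.9, 26.9, 39.2 and 33.9 FPKM in Foxd1-Cre and 1.9 to 2.36 FPKM (median 2.18) in wild types 1 to 6. With Six2-Cre it was at 2.48, 3.14 and 2.96 FPKM against 1.5, 1.48 and 2.2, above the wild types but without a called effect (0.51 ± 0.14 SE, adjusted p = 0.0687). That effect passed without wild type 9 (adjusted p = 0.0412) and in a joint fit with 1 variance for both library sets (0.0403). The difference for Nkd2 was 2.72 ± 0.20 (SE, adjusted p = 2.23e-07).

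Lgr4, Rnf43 and Myc rose in Foxd1-Cre and fell in Six2-Cre. Lgr4 (ENSMUSG00000050199, GRCm38 chromosome 2, 109917647 to 110014257), a receptor for R-spondins, which strengthen Wnt signals, stood at 27.8, 28.9, 30.9, 32.5 and 28.5 FPKM in Foxd1-Cre and 16.8 to 20.2 FPKM (median 18.5) in wild types 1 to 6. Six2-Cre libraries 1 to 3 held 18, 19.9 and 18.7 FPKM against 25.1, 27.6 and 27.2, below each wild type, and the difference was 1.13 ± 0.08 (SE, adjusted p = 3.54e-07). For Lgr4 wild types 1 to 6 lay wholly below wild types 7 to 9. Rnf43, a ubiquitin ligase that removes Wnt receptors, had effects of 0.49 and -0.59 and a difference of 1.08 ± 0.14 (SE, adjusted p = 7.65e-05). Its fall in Six2-Cre ended without Six2-Cre 2 or 3 or wild type 7 or 8 (adjusted p from 0.0522 to 0.0565). Myc (ENSMUSG00000022346, GRCm38 chromosome 15, 61985391 to 61990374), a growth regulator and classical target of the pathway, stood at 54.9, 53.6, 56.3, 54.5 and 55.3 FPKM in Foxd1-Cre and 44.7 to 50.7 FPKM (median 48.2) in wild types 1 to 6. In Six2-Cre it stood at 25.2, 27.3 and 26.1 FPKM against 48.6, 47.5 and 43.1. The groups did not overlap in either comparison, and the difference was 1.00 ± 0.07 (SE, adjusted p = 9.31e-06). Znrf3, the partner of Rnf43, rose in Foxd1-Cre alone (0.65, difference 0.78 ± 0.13 SE, adjusted p = 0.000553), and the cyclin Ccnd1 fell in Six2-Cre alone (-0.69, difference 0.50 ± 0.09 SE, adjusted p = 0.000838). For Znrf3 too, wild types 1 to 6 (4.75 to 7.14 FPKM) lay wholly below wild types 7 to 9 (12.2 to 14.2). A fall of Ccnd1 in Foxd1-Cre passed without wild type 2 (-0.23, adjusted p = 0.0406).

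Among 13 nuclear partners of beta-catenin, the difference was called above 0 for 2 and below 0 for 3 (38.5%). Lef1, which binds DNA with beta-catenin, rose by 2.38 and 1.30 with a difference of 1.08 ± 0.12 (SE, adjusted p = 1.83e-05). For Lef1 wild types 1 to 6 (6.31 to 8.14 FPKM) lay wholly below wild types 7 to 9 (14.8 to 16.7). Its difference thus rests on controls at different levels, and library set and Cre line cannot be told apart. Sp5 (ENSMUSG00000075304, GRCm38 chromosome 2, 70474923 to 70477729), a zinc finger factor induced directly by the pathway, went further in Six2-Cre. It stood at 8, 7.4, 8.47, 8.74 and 9.09 FPKM in Foxd1-Cre and 1.5 to 2.01 FPKM (median 1.71) in wild types 1 to 6, and at 16, 18.9 and 15.1 FPKM in Six2-Cre against 1.57, 1.2 and 1.02. Both mutants lay wholly above their wild types, and the difference was -1.19 ± 0.14 (SE, adjusted p = 0.00066). The count below 0 was 1 (Sp5) without any 1 of Foxd1-Cre 1, 2 or 4, Six2-Cre 1, 2 or 3 or wild types 4, 6 or 7, and with the smaller degrees of freedom.

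**Figure D2:**
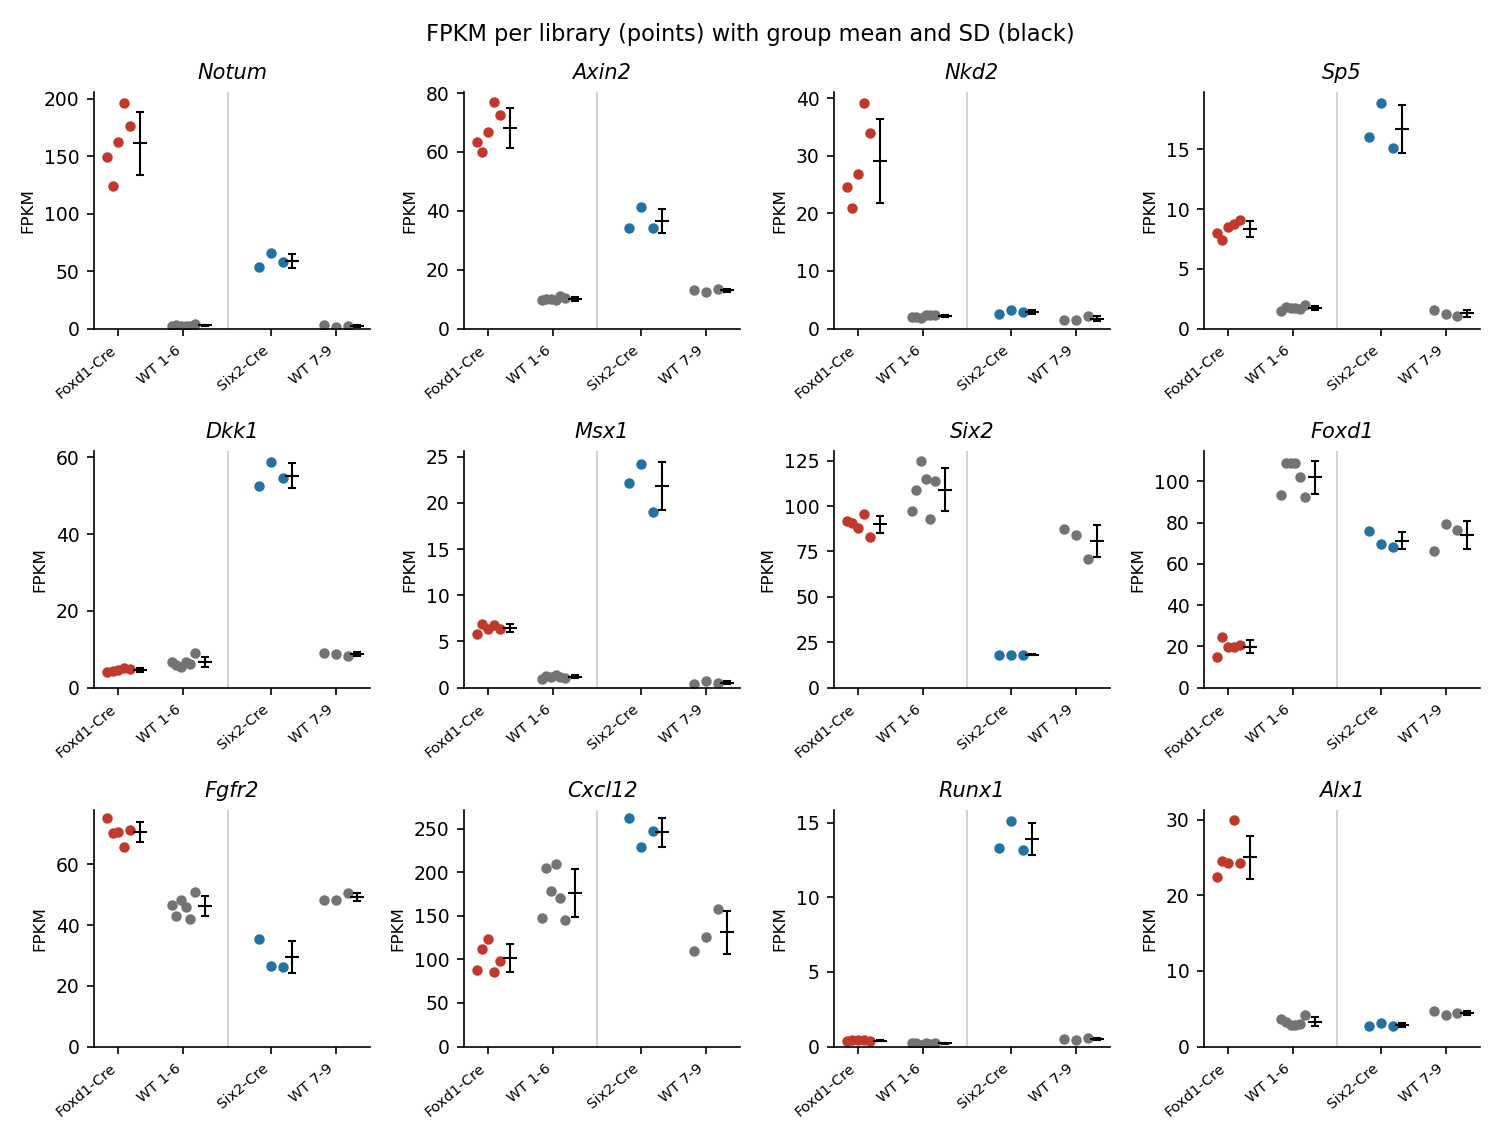
FPKM of 12 genes in each library (points) with the group mean and SD, for Foxd1-Cre and its wild types 1 to 6 at the left of the grey line and Six2-Cre and its wild types 7 to 9 at the right. Mutants are to be read only against the wild types on their own side, and Dkk1, Msx1, Sp5 and Runx1 stand higher above theirs in Six2-Cre, while Notum, Axin2, Nkd2 and Alx1 do so in Foxd1-Cre.

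The start regions of these genes were read for the core of the TCF/LEF motif, because that is the sequence through which beta-catenin reaches DNA. RefSeq promoters (GRCm38.p6, 250 bases before to 50 after the start, printed 5′ to 3′ on the strand of the gene) were searched on both strands for CTTTGAA and CTTTGAT, which differ only in the last base. Of the genes with the largest rises in both mutants, Wif1, Tmem132c, Fzd10 and Mybpc1 had an entry, and none of the 4 held a match. Of the same genes Apcdd1 was not searched, and the promoters of Notum, Mab21l1 and Irx5 were not analysed here. Sp5 (chr2:70474673-70474972, plus strand) held 1, which begins 104 bases before the start, and Dkk1 (chr19:30549447-30549746, minus strand) held 1, which begins 117 bases before it. These 2 were added after their values and letters had been seen, as the pair with a match that went further in Six2-Cre, and Wif1 (chr10:121033754-121034053, plus strand) is shown as a gene raised in both without a match. Capitals mark the match:
Sp5: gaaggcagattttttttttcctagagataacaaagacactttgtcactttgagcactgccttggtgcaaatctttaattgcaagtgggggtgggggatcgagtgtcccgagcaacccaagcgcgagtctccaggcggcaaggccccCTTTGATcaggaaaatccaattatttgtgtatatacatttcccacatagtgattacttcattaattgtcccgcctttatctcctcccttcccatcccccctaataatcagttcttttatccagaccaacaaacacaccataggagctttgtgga
Dkk1: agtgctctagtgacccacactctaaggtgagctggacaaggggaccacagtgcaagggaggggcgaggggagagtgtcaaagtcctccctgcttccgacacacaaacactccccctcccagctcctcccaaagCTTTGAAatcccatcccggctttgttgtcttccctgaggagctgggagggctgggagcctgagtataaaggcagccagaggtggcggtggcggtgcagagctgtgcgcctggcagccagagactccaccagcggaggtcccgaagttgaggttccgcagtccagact
Wif1: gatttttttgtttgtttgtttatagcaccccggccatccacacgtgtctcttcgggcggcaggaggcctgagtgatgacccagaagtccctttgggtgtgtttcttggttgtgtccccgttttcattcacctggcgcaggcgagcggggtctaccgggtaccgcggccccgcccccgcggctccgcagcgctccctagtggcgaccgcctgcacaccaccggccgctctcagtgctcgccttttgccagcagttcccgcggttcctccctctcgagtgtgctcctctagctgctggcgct
A match was present for 722 of the 10414 tested genes with a promoter in the table (6.93%). It was present for 23 of 278 genes that rose in both (8.27%), for 8 of 102 that fell in both (7.84%), for 48 of 590 with a difference above 0 (8.14%) and for 45 of 528 with a difference below 0 (8.52%). Among genes that moved oppositely it was present for 2 of 22 that rose in Foxd1-Cre and fell in Six2-Cre (9.09%) and for 8 of 43 with the reverse (18.6%), the class that holds Dkk1. These shares are given as a description with no test, and the last rests on few genes. A match is a run of letters and no evidence of binding, and the 300 bases searched leave out distant elements.

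More nephron progenitor genes fell in Six2-Cre than in Foxd1-Cre. Of 26 measured, 2 rose and 8 fell in Foxd1-Cre, and 1 rose and 18 fell in Six2-Cre. The difference was called above 0 for 17 (65.4%, against 11.0% over all genes tested) and below 0 for none. Medians were -0.14 and -0.82 for the effects and 0.70 for the difference. Cited1 (ENSMUSG00000051159, GRCm38 chromosome X, 102247381 to 102252181), a cofactor found in the least committed progenitors, stood at 35.5, 28.6, 27.7, 36 and 25.6 FPKM in Foxd1-Cre and 36.9 to 50.7 FPKM (median 47.1) in wild types 1 to 6. The Six2-Cre libraries stood at 3.64, 3.64 and 2.84 FPKM against 40.5, 35.4 and 32. Both mutants lay below all their wild types, and the difference was 2.51 ± 0.16 (SE, adjusted p = 6.62e-08). Capn6, a calpain-family protein, and Dcx, a microtubule-binding protein, also fell in both. The effects were -0.44 and -2.34 for Capn6 (difference 1.91 ± 0.10 SE, adjusted p = 2.44e-08) and -0.76 and -2.71 for Dcx (difference 1.94 ± 0.15 SE, adjusted p = 1.67e-07). Uncx, a homeobox factor, had effects of -0.32 and -1.43, both called, with a difference of 1.11 ± 0.08 (SE, adjusted p = 2.35e-05).

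Other progenitor regulators fell in Six2-Cre alone. Eya1, the phosphatase that works with Six2, stood at 57.2, 47.4, 40.7, 39.4 and 38 FPKM in Foxd1-Cre, which overlapped the 40.9 to 58.8 FPKM (median 48.8) of wild types 1 to 6. In Six2-Cre it was at 19.2, 18.2 and 19.5 FPKM against 55.1, 61.9 and 54.2, and the difference was 1.39 ± 0.13 (SE, adjusted p = 2.76e-06). Wt1 and Pax2, transcription factors that kidney formation requires, had effects of -0.90 and -0.88 in Six2-Cre, both called, and of -0.03 and -0.06 in Foxd1-Cre that did not pass. Their differences were 0.87 ± 0.08 (SE, adjusted p = 4.93e-06) for Wt1 and 0.82 ± 0.08 (SE, adjusted p = 5.08e-06) for Pax2. In the other direction, Sall1, a zinc finger factor, and Gdnf, the signal that draws the ureteric bud, fell in Foxd1-Cre (-0.43 and -0.47) and did not pass in Six2-Cre (-0.20 and -0.12). The difference itself was not called for either (adjusted p = 0.174 and 0.0643), although that of Gdnf passed without Foxd1-Cre 1 or wild type 2 or 7 (adjusted p from 0.00819 to 0.0443). The fall of Sall1 in Six2-Cre passed without wild type 9 (adjusted p = 0.0266).

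Genes of committed nephrons split. Of 19, the difference was called above 0 for 6 and below 0 for 4 (52.6%), with a median of 0.09. Wnt4 (ENSMUSG00000036856, GRCm38 chromosome 4, 137277489 to 137299726), the signal that starts epithelium formation, rose alike, from 19.3 to 25.5 FPKM (median 21.8) in wild types 1 to 6 to 40, 34.3, 39.7, 43.8 and 40.3 FPKM in Foxd1-Cre. In Six2-Cre it rose from 20.5, 18.2 and 17.9 to 32.9, 32 and 30.4 FPKM. Neither mutant overlapped its wild types, and the difference had a 95% interval of -0.13 to 0.31. Pax8, which acts in the first epithelium, fell alike, with effects of -0.66 and -0.64 and an interval of -0.29 to 0.25. Fgf8, a growth factor that early nephrons need, fell in Foxd1-Cre (-0.80), was at 0.47 in Six2-Cre without passing, and had a difference of -1.27 ± 0.17 (SE, adjusted p = 0.000869). Its Six2-Cre effect passed in joint fits with 1 variance for both library sets and with a weight per library set (adjusted p = 0.0134 and 0.0433). Osr2, a zinc finger factor, stood at 12.3, 6.06, 9.86, 11.7 and 12 FPKM in Foxd1-Cre and 3.59 to 8.1 FPKM (median 5.51) in wild types 1 to 6, and at 0.137, 0.885 and 0.599 FPKM in Six2-Cre against 6.77, 4.36 and 5.18. Its difference was 2.83 ± 0.32 (SE, adjusted p = 2.02e-05). The rise of Osr2 in Foxd1-Cre (adjusted p = 0.0448) ended without Foxd1-Cre 1, 3, 4 or 5 or wild type 2, 3, 4 or 6 (adjusted p from 0.0574 to 0.109) and without the filter on low values (0.0516). With the smaller degrees of freedom 3 committed nephron genes were above 0 and 3 below 0.

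More ureteric bud genes fell in Six2-Cre than in Foxd1-Cre. Of 24, 3 rose and 3 fell in Foxd1-Cre, and 1 rose and 11 fell in Six2-Cre. The difference was called above 0 for 10 and below 0 for 1 (45.8%), and its median was 0.47. Krt18, an epithelial keratin, stood at 40.2, 32.7, 30.2, 28.1 and 32.3 FPKM in Foxd1-Cre and 27.8 to 35.6 FPKM (median 31) in wild types 1 to 6, and at 17.7, 16.2 and 14.8 FPKM in Six2-Cre against 29.6, 30.6 and 27.6. All Six2-Cre libraries lay below their wild types. The Foxd1-Cre libraries overlapped theirs, with Foxd1-Cre 1 above the range, and the difference was 0.87 ± 0.12 (SE, adjusted p = 8.78e-05). Its partner Krt8 had a difference of 0.74 ± 0.10 (SE, adjusted p = 7.22e-05) and the adhesion molecule Epcam one of 0.56 ± 0.09 (SE, adjusted p = 0.00138). Spry1, a brake on signalling from the receptor of Gdnf, rose in Six2-Cre (0.45) and had a difference of -0.56 ± 0.07 (SE, adjusted p = 0.000826). The Foxd1-Cre rises numbered 1 without Foxd1-Cre 2 or 3 or wild type 3, 4 or 5. The Six2-Cre falls numbered 4 to 7 without any 1 of its 6 libraries, the differences above 0 numbered 6 without Six2-Cre 3, and 4 were above 0 with the smaller degrees of freedom.

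Cortical stroma genes showed the reverse. Of 22, 4 rose and 13 fell in Foxd1-Cre, and 6 rose and 1 fell in Six2-Cre. The difference was called below 0 for 13 (59.1%) and above 0 for none. Medians were -0.45 and 0.22 for the effects and -0.74 for the difference. Aldh1a2 (ENSMUSG00000013584, GRCm38 chromosome 9, 71215789 to 71296243), which makes retinoic acid, stood at 91.7, 83.5, 85.6, 76.3 and 73.3 FPKM in Foxd1-Cre and 218 to 253 FPKM (median 232) in wild types 1 to 6. Its Six2-Cre values were 206, 192 and 214 FPKM against 208, 215 and 184, and the difference was -1.51 ± 0.09 (SE, adjusted p = 1.18e-07). Fibin, a secreted protein, and Mme, a membrane peptidase, had differences of -1.71 ± 0.10 (SE, adjusted p = 2.32e-07) and -1.64 ± 0.12 (SE, adjusted p = 2.32e-07). Cxcl12 (ENSMUSG00000061353, GRCm38 chromosome 6, 117168535 to 117181367), a chemokine, fell in one mutant and rose in the other. It stood at 88.3, 112, 123, 86 and 98.2 FPKM in Foxd1-Cre and 145 to 209 FPKM (median 174) in wild types 1 to 6, and at 262, 229 and 247 FPKM in Six2-Cre against 110, 126 and 158. No mutant library overlapped its wild types, and the difference was -1.70 ± 0.18 (SE, adjusted p = 1.28e-05). Ebf1, a transcription factor, did the same, at 1.97, 2.9, 2.81, 3.01 and 2.24 FPKM against 4.97 to 5.82 FPKM (median 5.41), and at 21.6, 21.9 and 20.1 FPKM against 8.52, 8.38 and 10.3, with a difference of -1.99 ± 0.12 (SE, adjusted p = 4.8e-08). Meis1, a homeobox factor, had effects of -0.44 and 0.32 and a difference of -0.76 ± 0.09 (SE, adjusted p = 2.35e-05). Its rise in Six2-Cre ended in a joint fit with a weight per library set (adjusted p = 0.0793). For Ebf1 and Meis1 wild types 1 to 6 lay wholly below wild types 7 to 9. Ntn1 (ENSMUSG00000020902, GRCm38 chromosome 11, 68209364 to 68400823), a guidance protein of the same list, fell alike in both. It stood at 6.92, 9.39, 8.54, 9.12 and 7.79 FPKM against 22.7 to 34 FPKM (median 28.2), and at 10.8, 7.61 and 7.7 FPKM in Six2-Cre against 29.3, 24.8 and 25.8, and the interval of the difference was -0.48 to 0.28.

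The medullary stroma list split. Of 15 genes, the difference was called above 0 for 5 and below 0 for 5 (66.7%). Without Six2-Cre 1 only 3 were above 0, and with the smaller degrees of freedom 3 were above 0 and 2 below 0. Alx1 (ENSMUSG00000036602, GRCm38 chromosome 10, 102998707 to 103030215), a homeobox factor, stood at 22.4, 24.5, 24.2, 29.9 and 24.2 FPKM in Foxd1-Cre and 2.81 to 4.19 FPKM (median 3.12) in wild types 1 to 6. With Six2-Cre it was at 2.75, 3.13 and 2.69 FPKM against 4.75, 4.23 and 4.37, below every wild type, and the difference was 3.10 ± 0.13 (SE, adjusted p = 3.78e-10). The fall in Six2-Cre (adjusted p = 0.0197) ended without Six2-Cre 1 or 3 or wild type 7, 8 or 9 (adjusted p from 0.0505 to 0.0735). Penk, the precursor of enkephalin peptides, stood at 43.8, 46.3, 55.3, 74.8 and 57.9 FPKM against 2.3 to 10.1 FPKM (median 8.08), and at 4.15, 2.4 and 2.37 FPKM in Six2-Cre against 6.88, 3.32 and 10.1. Its difference of 3.78 ± 0.47 (SE, adjusted p = 0.000106) was the largest above 0 under the naming rule. Fhl2, a LIM-domain cofactor of beta-catenin, went the other way. It stood at 10.5, 10.1, 13.3, 13 and 11.6 FPKM against 13.5 to 18.1 FPKM (median 16.8), and at 32.5, 36.4 and 33.5 FPKM in Six2-Cre against 13.6, 13.3 and 14, with a difference of -1.71 ± 0.10 (SE, adjusted p = 1.11e-08). Zeb2, a repressor of epithelial genes, rose alike, by 0.94 and 0.85, with an interval of -0.23 to 0.39.

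Among the genes that rose in Foxd1-Cre and fell in Six2-Cre, Kif26b, Dst and Fgfr2 moved most beside Osr2 when ranked by the smaller of their effects. Kif26b, a kinesin expressed in nephron mesenchyme, stood at 35.5, 34.9, 34.4, 30.4 and 33 FPKM in Foxd1-Cre and 14.6 to 22.5 FPKM (median 20.4) in wild types 1 to 6. Six2-Cre libraries 1 to 3 held 19.8, 16.4 and 19.6 FPKM against 36.7, 35.9 and 34.6, and the difference was 1.69 ± 0.13 (SE, adjusted p = 1.13e-07). Dst, which links cytoskeletal filaments, had effects of 0.69 and -0.96 and a difference of 1.65 ± 0.14 (SE, adjusted p = 1.09e-06). It stood at 25.9 to 31 FPKM in Foxd1-Cre against 13.2 to 20.5, and at 15 to 15.8 FPKM in Six2-Cre against 27.4 to 35.9. For Kif26b and Dst wild types 1 to 6 lay wholly below wild types 7 to 9, while those of Fgfr2 overlapped. The opposite signs of Kif26b and Dst thus rest on controls at different levels, and library set and Cre line cannot be told apart. Fgfr2, a receptor for fibroblast growth factors, stood at 75.3, 70.2, 70.5, 65.8 and 71.3 FPKM against 42.1 to 51 FPKM (median 46.4), and at 35.5, 26.4 and 26.3 FPKM in Six2-Cre against 48.4, 48.3 and 50.7. The groups did not overlap on either side, and the difference was 1.34 ± 0.13 (SE, adjusted p = 0.000215). Among the genes that fell in Foxd1-Cre and rose in Six2-Cre, Svopl, a transporter-like protein, had effects of -0.92 and 0.63 and a difference of -1.55 ± 0.16 (SE, adjusted p = 3.8e-06). Brinp1, a protein of neural cells induced by BMP and retinoic acid, had effects of -0.81 and 1.30 and a difference of -2.11 ± 0.20 (SE, adjusted p = 3.87e-06).

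Further genes with large differences belonged to other functions. Runx1 (ENSMUSG00000022952, GRCm38 chromosome 16, 92601466 to 92826149), a regulator of blood formation, stood at 0.351, 0.408, 0.431, 0.428 and 0.364 FPKM in Foxd1-Cre and 0.121 to 0.27 FPKM (median 0.21) in wild types 1 to 6, all below 1 FPKM. In Six2-Cre it stood at 13.3, 15.1 and 13.2 FPKM against 0.503, 0.45 and 0.578, and the difference was -3.09 ± 0.11 (SE, adjusted p = 6.47e-08). Mt3, a metallothionein, was at 7.12, 4.91 and 9.47 FPKM in Six2-Cre against 0, 0.511 and 0, and at 0.281, 0.163, 0.38, 0 and 0.209 FPKM in Foxd1-Cre against 0.188 to 0.387 FPKM (median 0.268). The difference was -2.87 ± 0.28 (SE, adjusted p = 0.000504). The homeobox gene En2 (difference -2.13 ± 0.15 SE, adjusted p = 6.61e-06) and the adaptor gene Stac (-2.20 ± 0.12 SE, adjusted p = 5.28e-08) rose in Six2-Cre by 2.03 and 1.87, and Stac fell in Foxd1-Cre (-0.33, adjusted p = 0.00903), a call that ended with the floor of 5 FPKM (0.136). Rnase12, a gene of the ribonuclease A family, was second in size below 0. It stood at 2.01, 1.59, 1.02, 1.76 and 1.84 FPKM in Foxd1-Cre against 3.61 to 4.7 FPKM (median 4.27), and at 9.99, 8.31 and 4.77 FPKM in Six2-Cre against 1.61, 0 and 2.26. Neither mutant overlapped its wild types, and the difference was -3.04 ± 0.49 (SE, adjusted p = 0.00888). Its rise in Six2-Cre ended without Six2-Cre 1, 2 or 3 or wild type 7 (adjusted p from 0.0676 to 0.118) and without the filter on low values (0.0516). With a pseudocount of 0.1 that rise (0.119) and the difference (0.0562) both ended. In the other direction, Efhd1, a calcium-binding protein, stood at 11.9, 11.4, 14.6, 14.9 and 16.6 FPKM in Foxd1-Cre against 0.196 to 0.54 FPKM (median 0.363), and at 0.641, 1.24 and 0.968 FPKM in Six2-Cre against 0.966, 0.0995 and 0.725. Its difference was 3.13 ± 0.27 (SE, adjusted p = 0.00015). Mapkapk3, a kinase activated by MAP kinases, was second in size above 0 with neither effect called. It stood at 23.4, 13.1, 17.2, 14.4 and 7.09 FPKM in Foxd1-Cre against 2.38 to 12.1 FPKM (median 5.59), and at 1.05, 0.462 and 0.94 FPKM in Six2-Cre against 12.3, 0.974 and 14. Both mutants overlapped their wild types, which spread widely, and the difference was 3.15 ± 0.85 (SE, adjusted p = 0.0457). That call ended without any 1 of Foxd1-Cre 1 or 3, Six2-Cre 1, 2 or 3 or wild types 1, 2, 4, 7 or 9 (adjusted p from 0.0504 to 0.138), with the smaller degrees of freedom (0.101), with a pseudocount of 0.1 (0.0509) and without the filter on low values (0.0574). Amhr2, the receptor of anti-Müllerian hormone, rose by 2.93 in Foxd1-Cre and was at 0.03 in Six2-Cre. Its difference of 2.90 ± 0.36 (SE, adjusted p = 3.98e-05) ended with a pseudocount of 0.1 (adjusted p = 0.0737). Sp7, an osteoblast factor, rose by 2.47 in Foxd1-Cre and did not pass in Six2-Cre (0.32), with a difference of 2.15 ± 0.19 (SE, adjusted p = 0.000127). Thy1, a surface glycoprotein, rose by 2.01 in Foxd1-Cre and did not pass in Six2-Cre (-0.43), with a difference of 2.44 ± 0.19 (SE, adjusted p = 1.27e-05). Its Six2-Cre effect passed in a joint fit with 1 variance for both library sets (adjusted p = 0.0396).

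BMP signalling genes mostly rose where they passed, and Msx1 rose further in Six2-Cre. Of 17 genes, Foxd1-Cre raised 11 and lowered 1, and Six2-Cre raised 12 and lowered 1. The difference was called above 0 for 1 and below 0 for 5 (35.3%), with a median of -0.22. The calls were up in both for 8 of the 17 and down in both for 1. Without Six2-Cre 2 or 3 the Six2-Cre rises numbered 7 and 6. Msx1 (ENSMUSG00000048450, GRCm38 chromosome 5, 37820485 to 37824583), a homeobox target of BMP signals, stood at 5.8, 6.89, 6.31, 6.74 and 6.38 FPKM in Foxd1-Cre and 0.935 to 1.34 FPKM (median 1.17) in wild types 1 to 6. The Six2-Cre libraries stood at 22.1, 24.2 and 19 FPKM against 0.414, 0.695 and 0.457, and the difference was -2.12 ± 0.14 (SE, adjusted p = 9.21e-06). Bmp4, a ligand, rose by 0.85 and 1.74 with a difference of -0.88 ± 0.15 (SE, adjusted p = 0.00112). Grem1, which blocks BMP ligands, rose in Foxd1-Cre alone (1.61) and had a difference of 1.15 ± 0.23 (SE, adjusted p = 0.00661), which ended with a pseudocount of 0.1 (adjusted p = 0.0575).

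**Figure D3:**
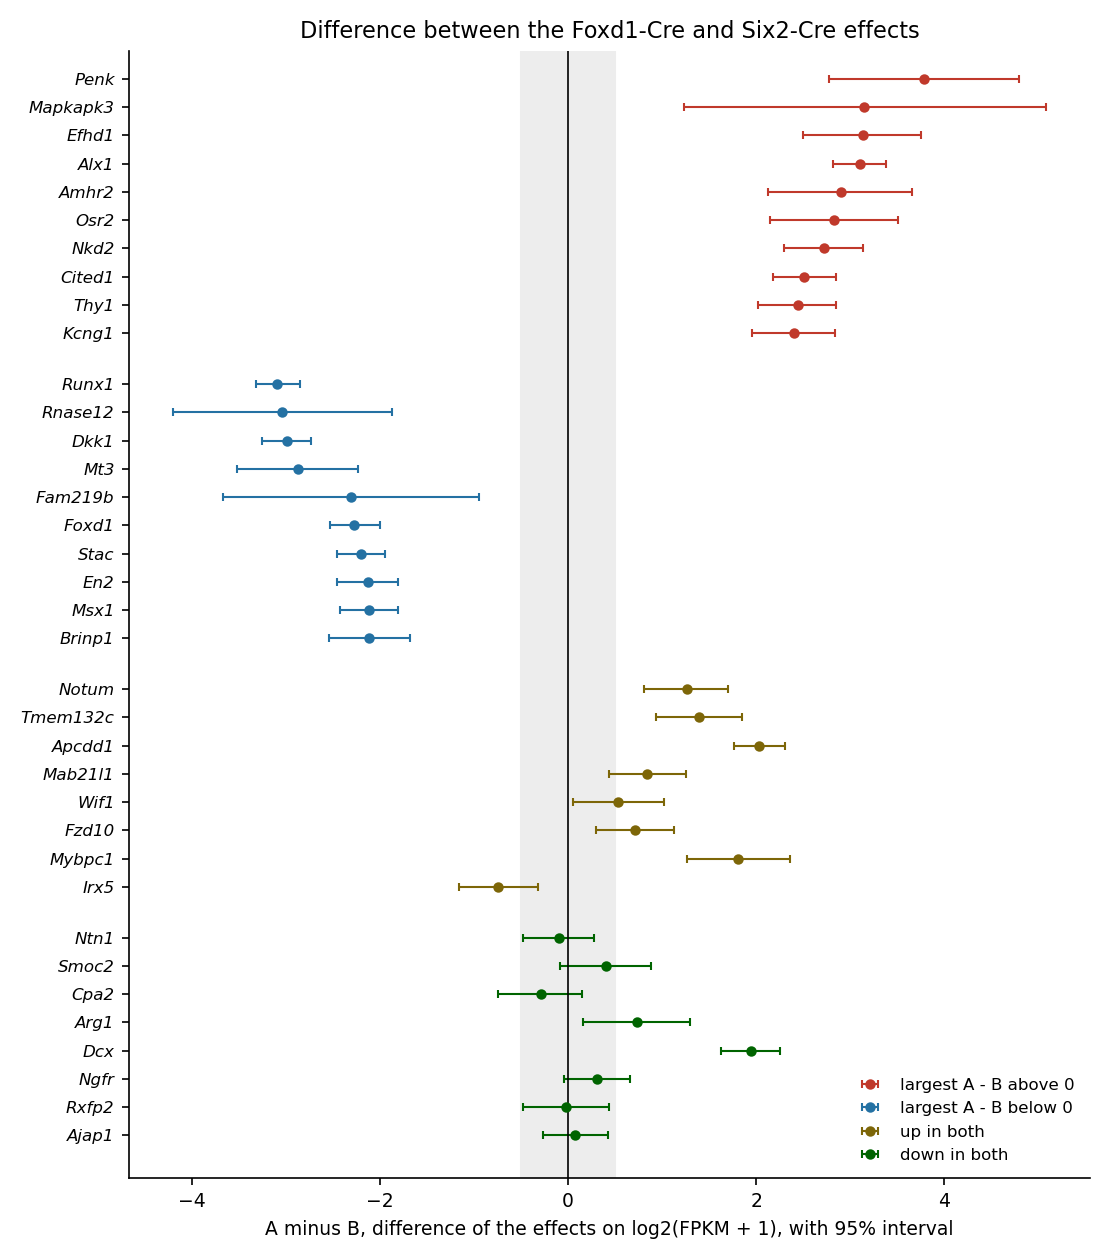
Difference of the effects (Foxd1-Cre minus Six2-Cre, log2 scale) with its 95% interval for the genes that rank highest by difference and for those that rose or fell most in both mutants. The grey band spans -0.5 to 0.5, and the interval of Ntn1 lies inside it while that of Dcx (1.63 to 2.25) lies far outside although Dcx fell in both.

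For 227 genes called in both effects the 95% interval of the difference lay within 0.5 log2 units of 0, which bounds how far their responses differ. This count was 100 to 135 without Six2-Cre 1, 2 or 3 or wild type 7 or 8. Besides Ntn1, Wnt4, Pax8 and Zeb2, they included Bgn, a matrix proteoglycan, with effects of 1.10 and 0.96 and an interval of -0.13 to 0.41. Among the 374 genes up in both, 134 differences were above 0 and 240 below 0 (median -0.11), of which 52 and 61 were called. Among the 151 down in both, 134 were above 0 and 17 below 0 (median 0.30), of which 52 and 4 were called. The median effects of the genes down in both were -0.32 in Foxd1-Cre and -0.66 in Six2-Cre. Both classes hold only genes called in each fit, and the Six2-Cre fit had larger standard errors (median 0.095 against 0.059). Entry therefore favoured genes with the larger effect in Six2-Cre, and these counts and medians cannot show that shared genes responded more there. Mybpc1, a myosin-binding protein, and Tmem132c, a membrane protein, rose in both and further in Foxd1-Cre, with differences of 1.81 ± 0.24 (SE, adjusted p = 0.00149) and 1.39 ± 0.20 (SE, adjusted p = 0.00234). The latter ended with a pseudocount of 0.1 (adjusted p = 0.0578). Irx5, a homeobox factor, rose by 2.01 and 2.75. Its difference of -0.74 ± 0.19 (SE, adjusted p = 0.0323) ended without Foxd1-Cre 2, Six2-Cre 2 or 3 or wild type 7 or 9 (adjusted p from 0.0519 to 0.118) and with a pseudocount of 0.1 (0.22).

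Many genes of vessels and of the cells around them rose further in Six2-Cre. All 20 endothelial genes rose in Six2-Cre and 4 rose in Foxd1-Cre. The difference was called below 0 for 16 (80%, against 11.0% over all genes tested) and above 0 for none, with a median of -0.53. Without Six2-Cre 3 the 16 became 10, and with the smaller degrees of freedom 7. The 4 rises in Foxd1-Cre were 7 without Foxd1-Cre 1 and 1 or 2 without Foxd1-Cre 2, 3, 4 or 5 or wild type 1, 3, 5 or 6. Cldn5, a junction protein of endothelium, stood at 19.8, 26.4, 27.1, 25.5 and 24.4 FPKM in Foxd1-Cre and 17.6 to 26.7 FPKM (median 21.2) in wild types 1 to 6, and at 21.7, 21.2 and 21.1 FPKM in Six2-Cre against 9.16, 9.2 and 11.1. Only the Six2-Cre libraries separated from their wild types, and the difference was -0.87 ± 0.13 (SE, adjusted p = 0.000249). For Cldn5 wild types 7 to 9 lay wholly below wild types 1 to 6. Of 10 mural and renin genes, 2 rose in Foxd1-Cre and 8 in Six2-Cre, and the difference was called below 0 for 6 (60%). Pdgfrb, the receptor that marks pericytes, stood at 21.7, 25.6, 27.1, 27.5 and 25.4 FPKM in Foxd1-Cre and 17 to 27 FPKM (median 23) in wild types 1 to 6. Its Six2-Cre values were 48.6, 48 and 48.9 FPKM against 20, 18.5 and 18.5, and the difference was -1.13 ± 0.11 (SE, adjusted p = 8.44e-06). Abcc9 and Kcnj8, subunits of a potassium channel of these cells, had differences of -1.71 ± 0.16 (SE, adjusted p = 7.64e-06) and -1.81 ± 0.22 (SE, adjusted p = 0.000107).

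Marker sums moved with these results. Summed over the 20 endothelial genes, FPKM was 401 to 422 in Six2-Cre against 223 to 250 in wild types 7 to 9, and 328 to 419 in Foxd1-Cre against 303 to 384. In this sum wild types 7 to 9 lay wholly below wild types 1 to 6, and library set and Cre line cannot be told apart. The 12 mural and renin genes summed to 183 to 187 against 95.3 to 104, and to 100 to 128 against 80.4 to 123. Of them Higd1b was at 0 in all Six2-Cre libraries and in wild types 7 to 9. The 12 erythroid genes summed to 4430 to 5620 in Six2-Cre against 8870 to 10700, and to 3620 to 6410 in Foxd1-Cre against 4540 to 8490, where the ranges overlapped. Of the 9 erythroid genes tested, 1 had a called difference (11.1%, near the 11.0% over all genes tested). Among the 9, 8 fell and 1 rose in Six2-Cre, and 3 fell in Foxd1-Cre. The Six2-Cre count was 5 without Six2-Cre 2 or wild type 7 or 9, and the Foxd1-Cre count 1 without Foxd1-Cre 3 or 5 and 5 without Foxd1-Cre 4 or wild type 1. The gene that rose was Epor, the erythropoietin receptor, which had the 1 called difference of the list (-1.25 ± 0.16 SE, adjusted p = 0.00183). It stood at 2.14, 2.22, 2.16, 2.24 and 1.99 FPKM in Foxd1-Cre against 3.03 to 3.91 FPKM (median 3.44), and at 3.19, 2.68 and 3.62 FPKM in Six2-Cre against 1.16, 1.86 and 1.36. It fell in Foxd1-Cre (-0.48) and rose in Six2-Cre (0.76), a rise that ended without Six2-Cre 1 or 3 or wild type 7 or 9 (adjusted p from 0.0629 to 0.0831). For Epor wild types 1 to 6 lay wholly above wild types 7 to 9. The globin genes, such as Hba-a1, had no called difference (adjusted p = 0.2 for Hba-a1, which shares reads with its near copy Hba-a2 and is uncertain). The 18 neural and neural crest genes summed to 69.6 to 92.6 against 32.4 to 43.2 in Six2-Cre, and to 51.4 to 76.8 against 37.7 to 41.7 in Foxd1-Cre. Of these 14 were tested, with 1 difference above 0 and 5 below 0 (42.9%). The 5 were 3 without any 1 of Foxd1-Cre 1, 2 or 3, Six2-Cre 3 or wild types 4, 7, 8 or 9, and with the smaller degrees of freedom or a pseudocount of 0.1 or 5. Tubb3, a neuronal tubulin, accounted for the difference above 0, with effects of 2.99 and 1.42 and a difference of 1.57 ± 0.17 (SE, adjusted p = 2.86e-05). Tubb3 alone stood at 17.4 to 26.5 FPKM in Foxd1-Cre against 1.45 to 2.28. The median neural sum there was 56.1 against 40.1, so its rise in Foxd1-Cre rests largely on Tubb3. Fabp7, a glial lipid carrier, rose in Six2-Cre alone (1.90) and had a difference of -1.87 ± 0.23 (SE, adjusted p = 0.000262). Of 11 macrophage genes, none had a called difference by limma, and 2 had an unadjusted p under 0.05. What part any change in the number of vessel, blood or nerve cells has in the differences was not tested.

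**Figure D4:**
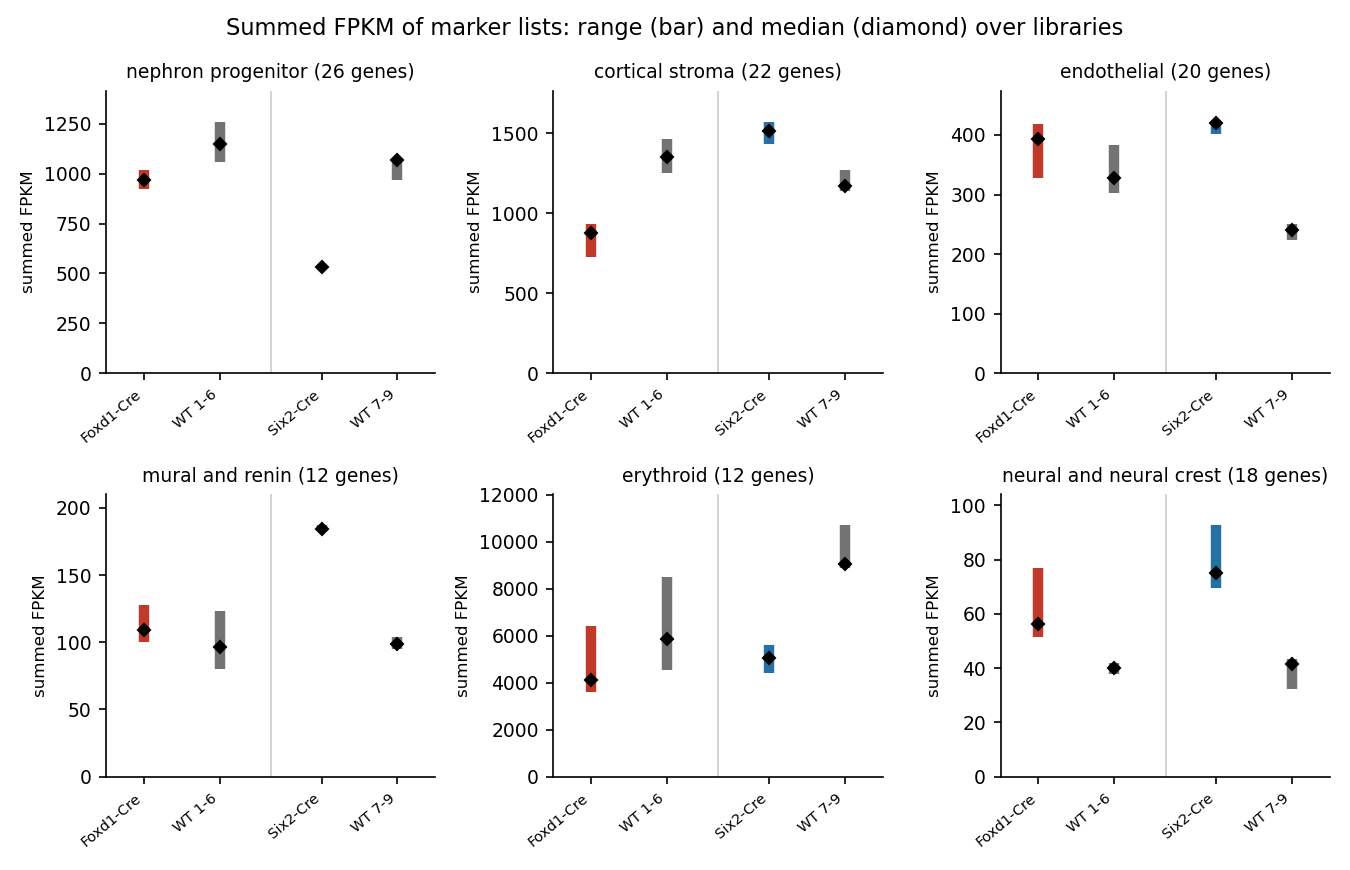
Summed FPKM of 6 marker lists, with bars from the lowest to the highest library of each group and diamonds at the median. The progenitor sum is lower in Six2-Cre than in wild types 7 to 9, the cortical stroma sum is lower in Foxd1-Cre than in wild types 1 to 6, and the endothelial and mural sums are higher in Six2-Cre than in wild types 7 to 9.

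Further lists had between 0 and 3 called differences each. Among 24 extracellular matrix genes none fell, 13 were called up in Foxd1-Cre and 15 in Six2-Cre, and the difference was called for 2 (8.33%, against 11.0% over all genes tested), both above 0 (median 0.04). The Six2-Cre count was 8 without Six2-Cre 1 or 3 or wild type 8. Thbs1, a matrix glycoprotein, was one of those 2 (0.77 ± 0.13 SE, adjusted p = 0.000991). For Thbs1 wild types 1 to 6 (5.99 to 9.27 FPKM) lay wholly below wild types 7 to 9 (10.3 to 13.3). Of 20 hypoxia and glycolysis genes 14 rose in Foxd1-Cre and 4 in Six2-Cre, and the difference was called above 0 for 2 (10%), with a median of 0.26, and 11 of the 20 had an unadjusted p under 0.05. Those 2 were 0 without Six2-Cre 3 or wild type 8 and with the smaller degrees of freedom, 4 without Foxd1-Cre 4 or wild type 6 and 5 without wild type 9, and the Six2-Cre count was 1 or 2 without Six2-Cre 1, 2 or 3 or wild type 7 or 8. Among 10 smooth muscle genes 7 rose in Foxd1-Cre and 3 in Six2-Cre. The difference was called above 0 for 3 of them (30%, against 11.0% over all genes tested). That number was 1 without Six2-Cre 1 or 3 or wild type 8 and with the smaller degrees of freedom. Acta2, the smooth muscle actin, stood at 12.4, 25.8, 39.4, 36.9 and 27.6 FPKM in Foxd1-Cre against 4.86 to 9.41 FPKM (median 8.25), and at 16.8, 13.8 and 27.5 FPKM in Six2-Cre against 5.17, 3.41 and 7.59. Its rise in Six2-Cre ended without Six2-Cre 1 or 3 or wild type 7 or 8 (adjusted p from 0.0548 to 0.0672), and the interval of -0.88 to 0.90 bounds the difference only loosely. The Six2-Cre count was 0 without wild type 8 and 1 without Six2-Cre 1 or 3 or wild type 7. Myocd, the coactivator of smooth muscle genes, rose in Foxd1-Cre alone (1.13) and had a difference of 1.28 ± 0.20 (SE, adjusted p = 0.00375). Of 20 cell cycle genes and 7 mitochondrially encoded genes, none had a called difference by limma, and 1 and 0 had an unadjusted p under 0.05. Only 3 of 10 gonad and adrenal genes could be tested, and Amhr2 was the 1 with a called difference (33.3% of the 3). The 10 summed to 10.8 to 22.6 FPKM in Foxd1-Cre against 2.73 to 4.94, and to 2.10 to 2.65 in Six2-Cre against 1.26 to 2.28. Amhr2 alone stood at 7.12 to 18.8 FPKM in Foxd1-Cre against 0.217 to 1.89, so it made up much of that rise. Star and Gata4, also tested, were called in neither mutant. Among 6 skeletal muscle genes Mybpc1 was the 1 with a called difference (16.7%), and 4 had one without wild type 8. The median of the cell cycle differences was -0.02.

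**Figure D5:**
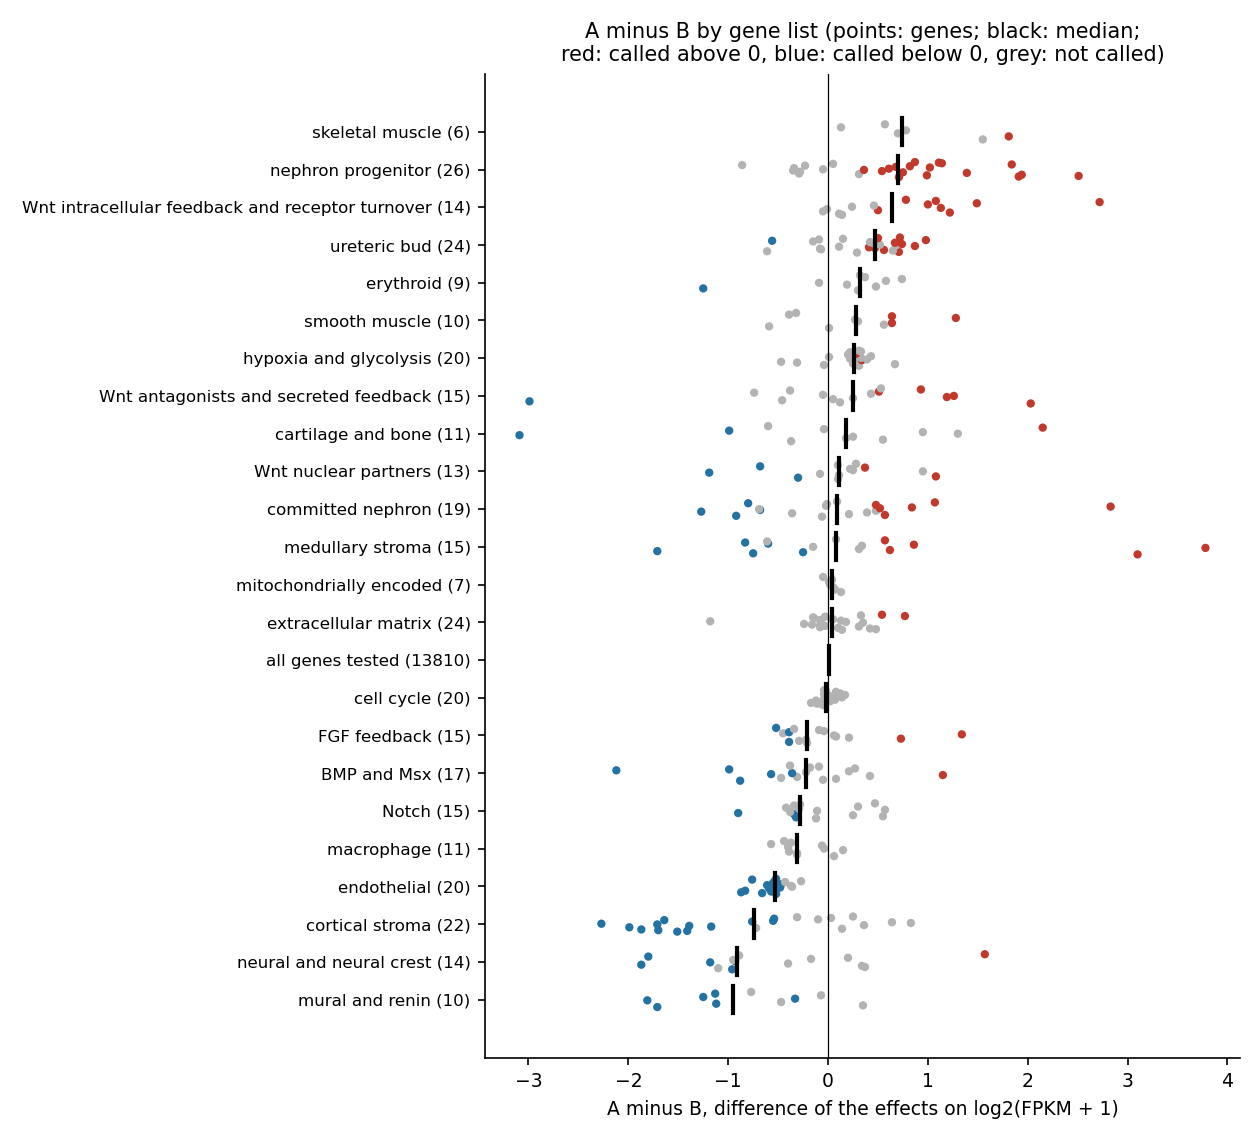
Difference of the effects for the tested genes of each list (points; red called above 0, blue called below 0, grey not called) with the median as a black bar and the number of genes in brackets. The skeletal muscle list, the progenitor list and the list of Wnt intracellular feedback and receptor turnover lie to the right (medians 0.74, 0.70 and 0.64). Cortical stroma, endothelial, mural, and neural and neural crest lists lie to the left (-0.74, -0.53, -0.95 and -0.91).

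Differences were called for 5 of 15 FGF genes (33.3%), 3 of 15 Notch genes (20%) and 3 of 11 cartilage and bone genes (27.3%), against 11.0% over all genes tested. In the FGF list Fgfr2 and Fgf10 were above 0 and 3 genes below 0 (none with the smaller degrees of freedom). Fgf10, a stromal growth factor, fell in Six2-Cre alone (-0.71) and had a difference of 0.73 ± 0.11 (SE, adjusted p = 0.000371). The 3 below 0 were 1 without Six2-Cre 2 or wild type 9. In the Notch list none was above 0 (2 without wild type 8) and 3 were below 0, among them Hes1 (-0.32 ± 0.06 SE, adjusted p = 0.00274), a target of Notch that fell in Foxd1-Cre alone (-0.38), and Hey2 (-0.90 ± 0.18 SE, adjusted p = 0.00331), a target that rose in both. In the cartilage and bone list Sp7 was above 0 and Runx1 and Sox5 below 0. Sox5, a cartilage factor, rose in Six2-Cre alone (1.00) and had a difference of -0.99 ± 0.10 (SE, adjusted p = 0.000219). For Sox5 wild types 1 to 6 (0.781 to 0.956 FPKM) lay wholly below wild types 7 to 9 (2.2 to 2.29). Runx2, the osteoblast regulator, rose in both (2.82 and 1.52), and its difference was not called (1.30 ± 0.34 SE, adjusted p = 0.0526), although it passed without wild type 3, 6 or 8 (adjusted p from 0.00603 to 0.0474) and with a pseudocount of 5 (0.0382). Its rise in Six2-Cre ended without Six2-Cre 1, 2 or 3 or wild type 7 (adjusted p from 0.0591 to 0.0915).

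Several genes with values here overlap another annotated gene: Abcc9, Aldh1a2, Alx1, Axin2, Bmp4, Capn6, Ccnd1, Ctnnb1, Dst, Ebf1, Efhd1, En2, Eya1, Fgf10, Fgfr2, Fhl2, Kif26b, Kremen1, Krt8, Lef1, Meis1, Mybpc1, Nkd1, Nkd2, Notum, Ntn1, Pax2, Pax8, Penk, Rnf43, Runx1, Runx2, Sox5, Spry1, Stac, Thbs1, Tmem132c, Tnfrsf19, Tubb3 and Zeb2. Counting by strand is not stated in the sources used here, so reads of such pairs may be shared and these values are uncertain to that extent.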

How the data were processed

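RNA from whole E12.5 kidneys was sequenced on an Illumina instrument. The authors deposited 1 table of FPKM values for 17 libraries, made with Salmon on GRCm38 after bcl2fastq 2.17.1.14, per the submitters' processing notes. FPKM carry no read counts, so a count test was not used. Symbols and coordinates came from GENCODE M21 (GRCm38), which named 24222 of 24432 IDs. Genes reaching 1 FPKM in 3 or more libraries were kept, and log2(FPKM + 1) was tested in limma (version 3.58.1; R 4.3.3) by a separate fit for each library set, mean-variance trend and two-sided tests. A fold on this scale understates the change of low genes. The standard errors of the 2 effects were combined as the root of summed squares with Satterthwaite degrees of freedom. Adjusted p-values are Benjamini-Hochberg over all genes tested, called under 0.05. limma was tested on simulated data first. Library sets are not named in the labels and follow from the wild types assigned to each effect.

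Genes were named by rank: the 10 largest differences each way, the 8 largest in each class called in both effects, and up to 4 a list, with at least 5 FPKM in a group and a transcript of at least 300 bases, leaving out predicted genes, pseudogenes and mitochondrial genes. Ctnnb1, Foxd1 and Six2 were always named. Other named genes were chosen after their values were seen. The members and lists were chosen with earlier results of these data known. Alternatives changed the pseudocount, filter, scaling, model, degrees of freedom and libraries used.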

Additional observations from a re-analysis of the deposited data

Results flagged for a closer look

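Among 178 groups of 5 or 6 libraries examined for the genes named with values, 3 held 1 library far from the others, fewer than the 1 in 20 that chance gives. Myocd in Foxd1-Cre 4 stood at 3.15 FPKM, with a gap to the nearest library of 0.87 of the range of its group. Frzb in Foxd1-Cre 4 stood at 24.4 FPKM, with a gap of 0.79. Bgn in wild type 2 stood at 31.4 FPKM, with a gap of 0.65. The called difference of Myocd and the uncalled ones of Frzb and Bgn stayed on the same side of the threshold without these libraries.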

How the results depend on the processing

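All 1519 called differences kept their sign under each alternative in which they could be tested. These genes were chosen for differences away from 0, and the smaller degrees of freedom and the joint fits leave each effect unchanged. A kept sign is therefore a weak check, and with the smaller degrees of freedom 712 of the 1519 were still called. Of the 75 genes named with a called difference, many of them picked by rank, 68 were called under every alternative run. The other 7, Amhr2, Fzd10, Grem1, Irx5, Mapkapk3, Rnase12 and Tmem132c, were not called with a pseudocount of 0.1, and for Fzd10, Irx5 and Mapkapk3 other settings ended the call too. With a pseudocount of 5, the interval of 355 genes lay within 0.5 log2 units. A floor of 5 FPKM left 777 genes up in Foxd1-Cre. With rescaled libraries 408 genes fell in Foxd1-Cre and 94 fell in both. A joint fit with 1 variance for both library sets gave 1882 genes up and 1787 down in Six2-Cre, 59 up in Foxd1-Cre and down in Six2-Cre, and 380 within 0.5. With the smaller degrees of freedom the differences numbered 365 above 0 and 347 below 0, because fewer degrees of freedom widen each test. Leaving out 1 library at a time gave 921 to 1236 genes up and 485 to 759 down in Foxd1-Cre, 568 to 1097 up and 339 to 808 down in Six2-Cre, and 532 to 814 differences above 0 and 504 to 766 below 0. It gave 221 to 391 up in both, 82 to 175 down in both, 16 to 29 up in Foxd1-Cre and down in Six2-Cre, 31 to 63 the reverse, and 100 to 253 within 0.5. Differences near 0 changed sign: Acta2 was at -0.04 with a pseudocount of 0.1 and -0.01 with rescaled libraries, and leaving out libraries gave -0.22 to 0.28 for Acta2, -0.18 to 0.05 for Ntn1, -0.08 to 0.05 for Pax8 and 0.0 to 0.17 for Zeb2. The cause of these changes was not tested.

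Foxd1-Cre and wild types share the numbers 1 to 5, but deviations of same-numbered libraries correlated by only 0.033 to 0.131, and 2 of 5 correlated best with their own number, so the numbers were not taken as pairs. With the replicate number as a block, 829 differences were above 0 and 738 below 0, 926 genes rose and 499 fell in Foxd1-Cre, 325 rose and 116 fell in both, 26 and 50 were opposite, and 190 were within 0.5. The block ended the Foxd1-Cre calls of Six2 and Runx1 (adjusted p = 0.0515 and 0.101) and brought the differences of Gdnf and Runx2 past the threshold (0.0467 and 0.0472). The Six2-Cre effect rests on 3 libraries a group and on fewer reads, and its standard errors had the larger median.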
